A study of Mus musculus with 45 samples.

Results

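A set of 10 genes of the exocrine pancreas was followed across liver, kidney and brain arrays of mice on 5 diets: Amy2a5, Ctrb1, Pnlip, Clps, Pnliprp1, Pnliprp2, Cela1, Cela2a, Cpa1 and Cpb1. They were chosen by symbol, and all 10 were found among the 22080 rows of the expression table. The choice rested on measured values, namely high levels on 2 liver arrays of the simvastatin group and nowhere else. The levels of these genes on the simvastatin liver arrays, and every contrast that uses those arrays, are therefore given as a description, without a test.

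The mice were male C57BL/6 animals, 7 weeks old, with 8 mice per diet. The Control group ate the AIN-93 diet. The HCD group ate AIN-93 with 0.5% cholesterol, and the other 3 groups ate this HCD with an addition. HCD+Sim carried simvastatin, a statin that inhibits the enzyme HMG-CoA reductase, at 0.03 g per 100 g. HCD+Gl-1 and HCD+Gl-2 carried 1.0% of an extract of the fungus Ganoderma lucidum (Gl), which for Gl-2 was grown on oak sawdust with 10 mM acetylsalicylic acid. All animals were deprived of food and water before sacrifice at day 43. Each of the 15 combinations of tissue and diet has 3 Affymetrix Mouse Gene ST v1.0 arrays, labelled A, B and C, for 45 arrays in all. By the study's methods, pool A joined RNA of one set of mice of a diet group, pool B that of the remaining mice, and pool C was A plus B. The 3 arrays of a group thus stand for a pair of separate pools, and the spread between them is not a spread between 3 sets of animals.

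A free-text field of the labels names brain for liver and kidney arrays also, so tissue was taken from the titles and checked with marker genes. The mean log2 level of 15 hepatocyte genes lay between 13.07 and 13.17 on the liver arrays, between 7.82 and 7.99 on the kidney arrays and between 6.51 and 7.07 on the brain arrays. The mean of 12 kidney genes was 11.67 to 11.82 on kidney arrays, and that of 12 brain genes was 11.33 to 11.59 on brain arrays. Each tissue label went with its markers. Array medians in liver ranged from 6.76 to 6.92, with the highest on array C of HCD+Sim.

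Acinar cells make up most of the pancreas and secrete digestive enzymes into the duct, many of them as inactive precursors stored in zymogen granules. Amylase cuts starch, the chymotrypsin and elastase families and the carboxypeptidases cut proteins, and pancreatic lipase with its cofactor colipase cuts dietary triglycerides. Transcription of acinar enzymes is known to depend on PTF1, a complex that binds an E-box together with a TC-rich box.

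Promoter sequences from RefSeq (GRCm38.p6), covering 250 bases before and 50 after each gene start, were found for 9 of the 10 genes and not for Clps. On both strands, 3 motifs were searched. The E-box, spelled CACCTG, occurred in 4 of the 9 promoters and in 20.2% of all 32851 promoters. The TC-rich box, spelled TTTCCC, occurred in 5 of the 9 promoters and in 25.2% of all promoters. In Amy2a5 it lay after the start, from base 37 on, and so outside the bases printed below. The letters TATAAA occurred in 4 of the 9 promoters and in 13.6% of all promoters. Cela1 was the only one of the 9 with an E-box and a TC-rich box no more than 25 bases apart, an arrangement held by 0.983% of all promoters, and there the boxes were 4 bases apart. The 250 bases before the start are printed below for the 2 genes that stood highest above the other liver arrays, for Cela1 with its paired boxes, and for Pnliprp2, which did not follow the others, with the searched motifs in capitals and the gene strand read 5′ to 3′.
Amy2a5 (chr3:113258700-113258949, minus strand): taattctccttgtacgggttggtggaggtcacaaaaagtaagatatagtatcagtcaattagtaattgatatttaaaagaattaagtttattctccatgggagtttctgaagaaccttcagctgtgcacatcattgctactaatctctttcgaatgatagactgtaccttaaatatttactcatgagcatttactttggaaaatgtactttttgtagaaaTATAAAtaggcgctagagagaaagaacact
Ctrb1 (chr8:111691011-111691260, minus strand): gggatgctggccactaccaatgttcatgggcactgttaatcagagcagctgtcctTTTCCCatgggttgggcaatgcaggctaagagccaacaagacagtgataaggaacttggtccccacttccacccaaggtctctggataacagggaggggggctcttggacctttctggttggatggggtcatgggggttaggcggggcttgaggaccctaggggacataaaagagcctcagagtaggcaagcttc
Cela1 (chr15:100687921-100688170, minus strand): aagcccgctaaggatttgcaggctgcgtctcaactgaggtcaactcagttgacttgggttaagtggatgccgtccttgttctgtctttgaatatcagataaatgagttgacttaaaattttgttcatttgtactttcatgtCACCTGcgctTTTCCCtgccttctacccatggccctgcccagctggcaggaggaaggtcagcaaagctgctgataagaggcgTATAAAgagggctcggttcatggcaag
Pnliprp2 (chr19:58759473-58759722, plus strand): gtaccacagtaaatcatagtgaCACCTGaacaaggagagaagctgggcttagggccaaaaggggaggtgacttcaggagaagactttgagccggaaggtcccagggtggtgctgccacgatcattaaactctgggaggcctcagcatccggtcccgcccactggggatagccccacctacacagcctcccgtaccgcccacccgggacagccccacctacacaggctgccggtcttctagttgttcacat
In Amy2a5 and Pnlip the TATAAA match began 30 bases before the start, and in Cela1 27 bases before it. The match in Cpb1 lay after the start, from base 36 on, so only 3 of the 4 are placed before it. The motif matches are descriptions of these letters and say nothing about binding. Pnlip, Pnliprp1 and Pnliprp2 lie in one stretch of chromosome 19, and the Pnliprp2 window held neither the TC-rich box nor TATAAA. This was not particular to Pnliprp2. The Pnliprp1 window held none of the 3 motifs and the Pnlip window no TC-rich box, and both genes were high on arrays A and B of HCD+Sim liver.

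On the liver arrays, 9 of the 10 genes stood higher on arrays A and B of HCD+Sim than on each of the 13 other liver arrays, and the same 9 stood above all 43 other arrays of the series. Over all rows of the table, arrays A and B were above the 13 other liver arrays in 0.987% and above the 43 other arrays in 0.58%. The exception was Pnliprp2. Because the genes were chosen by this pattern, these shares are given only to show how rare it was. In bulk RNA, more cells of a type and more RNA per cell cannot be told apart.

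Amy2a5, pancreatic amylase, read 9.34 on array A and 9.88 on array B of HCD+Sim liver, and 7.10 on array C, all on the log2 scale. On the 12 liver arrays of the other diets it ranged from 6.46 to 7.06. Relative to their median of 6.79, arrays A and B stood 5.85-fold and 8.51-fold higher, while array C was 0.30 log2 above it. Amy2a5 belongs to a cluster of near-identical amylase genes whose transcripts this array may not separate. Amy1, the amylase of salivary gland and liver, ranged over all 15 liver arrays from 10.43 to 11.01, with 10.89, 10.86 and 10.96 on arrays A, B and C of HCD+Sim, so the Amy1 row stayed at the level of the other diets.

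Ctrb1, chymotrypsinogen B, followed the same order with 9.14 on array A, 9.69 on array B and 6.95 on array C, against 6.61 to 6.97 on the 12 arrays of the other diets. Array C lay inside that range, and arrays A and B stood 5.03-fold and 7.37-fold above its median. Cela2a, an elastase, read 8.08, 8.80 and 6.96 on arrays A, B and C, against 6.75 to 7.21. Cela1, another elastase, stood least above the other arrays among the 9: 8.11, 8.25 and 7.71, against 7.45 to 7.81. Its lower value, on array A, exceeded the highest of the 13 other liver arrays by 0.30.

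The carboxypeptidases remove residues from the carboxyl end of proteins, Cpa1 favouring aromatic and aliphatic and Cpb1 basic residues. Cpa1 read 7.57 on array A, 8.40 on array B and 6.35 on array C, against 5.84 to 6.27 on the arrays of the other diets. Cpb1 read 6.25, 7.38 and 4.57, against 4.54 to 5.00. The carboxypeptidases showed the widest steps from array A to array B, 0.83 for Cpa1 and 1.13 for Cpb1.

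Among the genes of fat digestion, Pnlip, the triglyceride lipase, read 6.57, 7.14 and 5.68 on arrays A, B and C, against 5.09 to 5.64. Clps, its cofactor colipase, read 8.11, 8.60 and 7.00, against 6.73 to 7.21. Pnliprp1, a lipase-related protein with little known activity of its own, read 6.56, 6.82 and 5.05, against 4.74 to 5.38. All 3 were high on arrays A and B only. Pnliprp2, a lipase with broad substrates, read 6.32, 6.52 and 6.45, against 6.03 to 6.50, so that array A lay within the range of the other diets and the simvastatin arrays overlapped with the rest. The description by which the genes were chosen thus did not hold for Pnliprp2. Array C lay within the range of the 12 arrays of the other diets for 7 of the 10 genes and above it for 3 (Amy2a5, Pnlip and Cpa1).

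**Figure D1:**
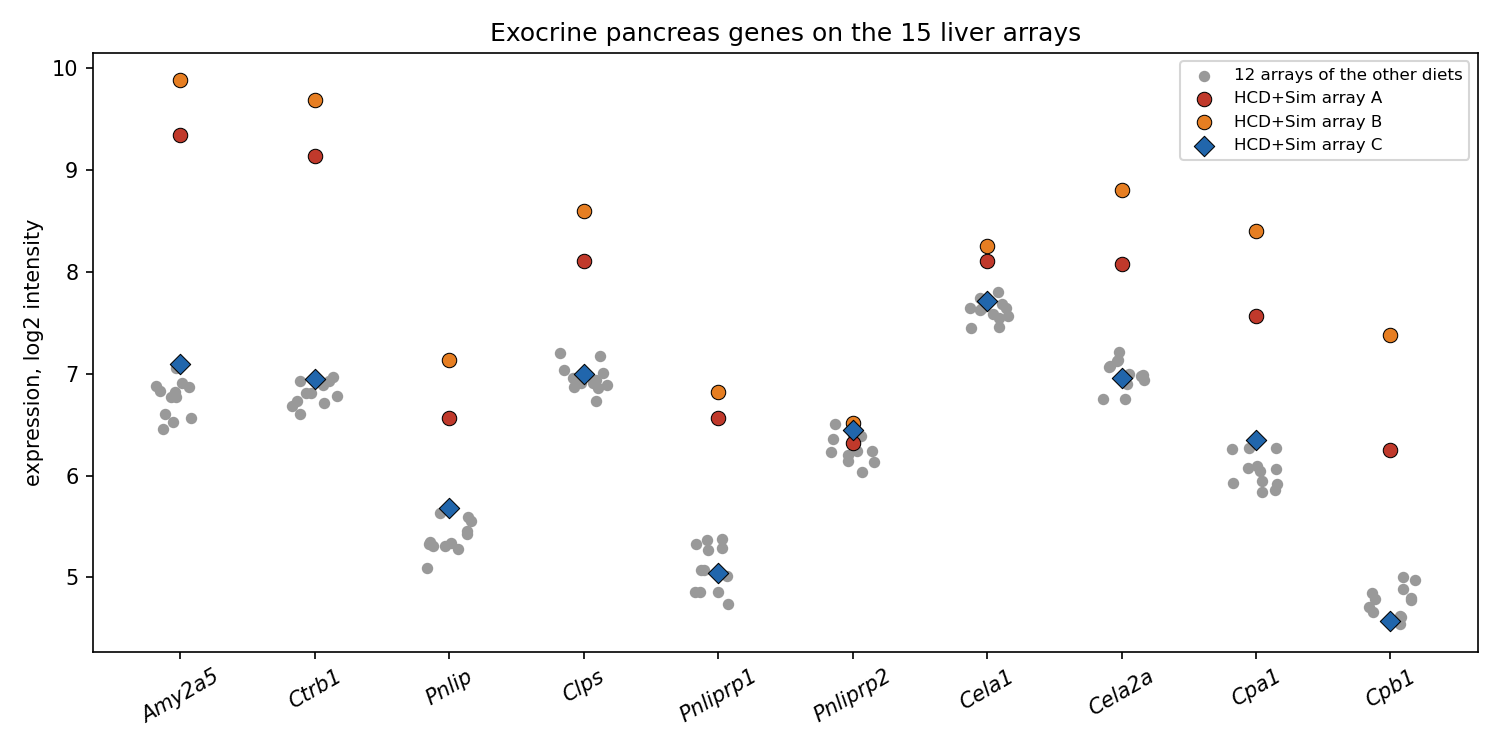
Expression (log2 intensity, vertical axis) of the 10 genes on the 15 liver arrays, 1 point per array. Red and orange circles are arrays A and B of HCD+Sim, blue diamonds its array C, and grey points the 12 arrays of the other diets; for 9 genes the red and orange points stand above all others, and for Pnliprp2 they do not.

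Array B exceeded array A for all 10 genes, by 0.14 (Cela1) to 1.13 (Cpb1) on the log2 scale, whereas over all rows B exceeded A in 54.0%. After the median of the 12 arrays of the other diets was subtracted on the linear scale, the ratio of the excess on B to that on A was 1.55 for Amy2a5, 1.58 for Ctrb1, 1.85 for Pnlip, 1.72 for Clps, 2.2 for both Cela2a and Cpa1. It was 1.3 for Pnliprp1, 1.36 for Cela1 and 2.87 for Cpb1, so the genes did not share 1 ratio. No ratio is read for Pnliprp2, since its array A had nearly no excess.

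Kidney and brain arrays did not reach these levels. Over the 30 kidney and brain arrays Ctrb1 stayed between 6.17 and 6.68, Cpb1 between 4.23 and 4.89, Cpa1 between 5.46 and 5.99, Pnlip between 4.98 and 5.57, Pnliprp1 between 4.47 and 5.26 and Clps between 6.67 and 7.29. Pnliprp2 ranged from 5.73 to 6.25 and Cela2a from 6.60 to 7.11. No simvastatin array of kidney or brain came near the levels of arrays A and B in liver. Amy2a5 was 5.33 ± 0.01 (SD, n = 3) in HCD+Sim kidney and 5.37 ± 0.03 (SD, n = 3) in HCD kidney, and it was 5.82 ± 0.16 (SD, n = 3) in HCD+Sim brain and 5.59 ± 0.06 (SD, n = 3) in HCD brain. For Amy2a5 the HCD+Sim brain arrays ranged from 5.73 to 6.00 and those of HCD brain from 5.55 to 5.66 (limma adjusted p = 0.99999). Pnliprp2 in kidney ranged from 5.88 to 5.96 in HCD+Sim and from 6.11 to 6.21 in HCD (limma adjusted p = 0.658). Its HCD+Sim kidney mean was the lowest of the 15 groups, 5.91 ± 0.04 (SD, n = 3). How many rows of the whole table separate between groups in this way was not counted, so nothing is read from these ranges.

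**Figure D2:**
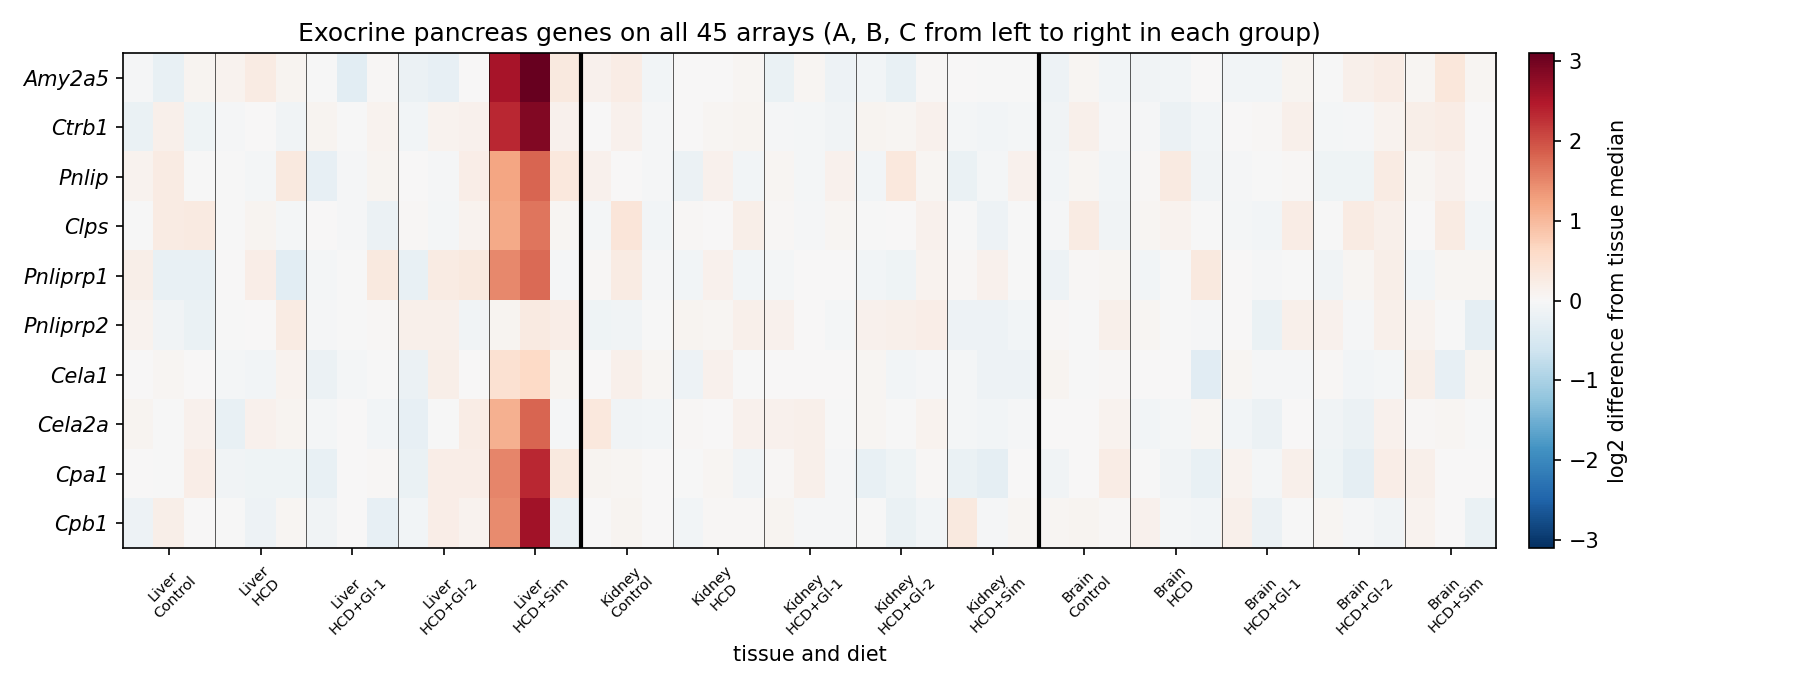
Log2 difference of the 10 genes (rows) from the median of the same tissue on all 45 arrays (columns, A to C from left to right in each group); the liver median leaves out HCD+Sim. The only deep red columns are arrays A and B of HCD+Sim liver, where Amy2a5 reaches 2.55 and 3.09, and the Pnliprp2 row stays pale there.

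HCD+Sim liver had the highest mean of the 15 groups for each of the 10 genes. Its means carried large errors, such as 8.78 ± 1.48 (SD, n = 3) for Amy2a5, 8.59 ± 1.45 for Ctrb1 and 6.07 ± 1.41 for Cpb1, because arrays A and B lay far from array C. For Amy2a5 the next groups were the other liver groups, from 6.95 ± 0.10 in HCD to 6.65 ± 0.15 in HCD+Gl-2, and neighbours in that order overlapped. Brain groups followed with 5.82 ± 0.16 to 5.59 ± 0.11, and kidney groups came last with 5.42 ± 0.16 to 5.24 ± 0.14, the kidney Control array range reaching into that of brain. For Cela1 the other liver groups (7.55 ± 0.09 to 7.66 ± 0.02) and the kidney groups (7.38 ± 0.05 to 7.57 ± 0.07) overlapped, and the brain groups were lower, at 6.89 ± 0.20 to 7.04 ± 0.04 (SD, n = 3 each). For the other 8 genes the order of the groups below HCD+Sim liver changed from gene to gene.

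In Control mice, liver was compared with kidney and with brain, which uses no simvastatin array in the contrast, although the spread in the limma model is shared with those arrays. The choice of genes also read the Control arrays, so these contrasts are a description. Their p values treat arrays A, B and C as separate samples, although by the methods pool C was A plus B. A row was called at an absolute log2 fold change above 0.7 with an adjusted p of at most 0.05 over all 22080 rows. Amy2a5 was higher in liver than in kidney by 1.31 (log2, SE 0.30, limma adjusted p = 0.000282) and higher than in brain by 1.15 (SE 0.30, limma adjusted p = 0.000805). It was the only one of the 10 genes called in either contrast, where 16.8% and 32.7% of all rows were called. Cela1 exceeded brain by 0.62 (SE 0.11, limma adjusted p = 2.63e-06), below the fold threshold.

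In the contrast of HCD+Sim with HCD liver, 8 of the 10 genes were called, all higher, beside 0.258% of all rows called and 0.199% called higher. As the genes were chosen on this contrast, nothing is read from that count. The log2 fold change was 1.83 (SE 0.30) for Amy2a5, 1.83 (SE 0.29) for Ctrb1, 1.51 (SE 0.22) for Cpa1 and 1.32 (SE 0.28) for Cpb1. It was 1.11 (SE 0.22) for Pnliprp1, 1.05 (SE 0.18) for Pnlip, 0.97 (SE 0.19) for Clps and 0.96 (SE 0.20) for Cela2a. Cela1 (0.40, SE 0.11) and Pnliprp2 (0.10, SE 0.09) were not called. The median over the 10 genes was 1.08, against 0.03 over all rows. The calls depended on the arrays that share the estimate of the spread: with the 15 liver arrays alone, or with the 6 arrays compared alone, none of the 10 was called. With array B left out 4 were called, and with array C alone in the simvastatin group none was.

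The other 11 diet contrasts are a description also, since the genes were chosen for low levels outside 2 simvastatin liver arrays, and the split within that group widens the SE of these genes in every contrast of the shared model. In liver, none of the 10 was called in HCD against Control (0.245% of all rows), HCD+Gl-1 against HCD (0.163%) or HCD+Gl-2 against HCD (0.303%), and their fold changes lay between -0.30 and 0.21 on the log2 scale. In kidney, none was called in HCD against Control (0.0408% of all rows), HCD+Gl-1 (0.131%), HCD+Gl-2 (0.335%) or HCD+Sim (0.14%) against HCD. In brain, none was called in the same 4 contrasts, where 0.0317%, 0.00906%, 0.0226% and 0% of all rows passed. Over the 11 contrasts, which share the HCD arrays within a tissue, the fold changes of the 10 genes ranged from -0.30 to 0.24. Nothing is read from the absence of calls.

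By the methods, pool C should hold the RNA of pools A and B. For each gene, array C was set beside the mean of A and B taken on the linear scale. In HCD+Sim liver, array C fell below that mean by more than 1 on the log2 scale for 8 of the 10 genes, and for 0.19% of all rows. The difference was -2.54 for Amy2a5, -2.50 for Ctrb1, -2.35 for Cpb1, -1.69 for Cpa1, -1.65 for Pnliprp1, -1.53 for Cela2a, -1.38 for Clps and -1.20 for Pnlip. It was -0.47 for Cela1 and 0.03 for Pnliprp2. Array C held a median of 31.4% of the mean of A and B over the 8 genes, with a range from 17.2% to 43.5%. Once the liver background was subtracted, the median was 2.35%, with a range from -4.03% to 13.9%.

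In the other 14 groups the same difference for the 10 genes lay between -0.44 and 0.42, and its group medians between -0.12 and 0.16, so that array C did not depart from A and B by more than 1 for any of them. The departure in HCD+Sim liver was not limited to pancreas genes. Of the 42 rows below -1 there, 8 were members, 4 were other acinar genes, 8 were skeletal muscle genes and 22 were in none of the lists. In the other liver groups 3 to 13 rows were below -1. A departing array C was not particular to HCD+Sim liver, since Control brain had 137 rows below -1 and 66 above 1, none of the 137 a member. Saa1, an acute phase gene of the liver named after its values were seen, read 11.42, 11.97 and 6.71 on arrays A, B and C of HCD+Sim. It also fell from A and B to C in HCD+Gl-1 (11.03, 11.63 and 8.25) and HCD+Gl-2 (10.67, 11.29 and 7.59), where the pancreas genes did not. Whether array C carried the RNA its label gives was not tested.

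**Figure D3:**
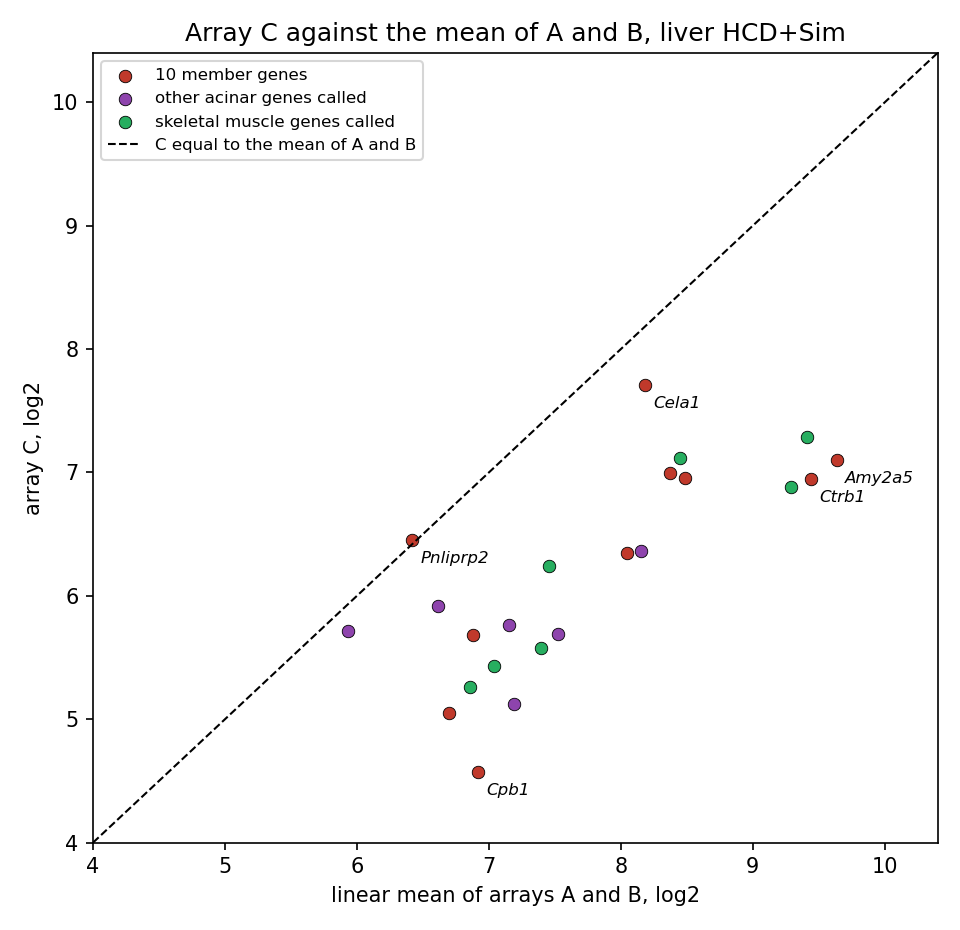
Array C of HCD+Sim liver (log2, vertical axis) against the linear mean of arrays A and B (log2, horizontal axis), 1 point per gene, for the 10 genes (red) and for other acinar (purple) and skeletal muscle (green) genes called in HCD+Sim against HCD. Points on the dashed line would have array C equal to the mean; Pnliprp2 lies on it, and Amy2a5, Ctrb1 and Cpb1 lie more than 2 log2 units below it.

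Other enzymes of acinar cells were read from a list of 21 genes, of which 15 had a row. The list was written with earlier results of these data known. In HCD+Sim against HCD liver, 5 were called higher, 0 lower and 10 were not called, and the median was 0.54. Over all rows 0.199% were called higher. The 10 not called ran from Try10 (-0.27) to Try5 (0.68), with Ctrc at 0.05 and Klk1 at 0.04. As for the members, 0 were called when the 15 liver arrays or the 6 compared arrays were fitted alone, and 9 when array C of HCD+Sim was left out. The 5 called with all arrays were 2210010C04Rik, a trypsinogen-like gene (1.79, SE 0.26), the pancreatic ribonuclease Rnase1 (1.4, SE 0.24), the chymotrypsin-like Ctrl (1.32, SE 0.23), the bile salt-activated lipase Cel (1.09, SE 0.18) and the trypsinogen Prss2 (0.74, SE 0.12). Each was higher on arrays A and B than on array C. 2210010C04Rik, for example, read 6.84, 7.47 and 5.12, against 4.37 to 5.01 on the arrays of the other diets, and Cel read 6.87, 7.39 and 5.76, against 5.32 to 5.64. Trypsinogen genes are close copies of one another, so reads of single copies are uncertain. Of 18 measured genes for granule and other secreted acinar proteins, only Zg16 was called (0.72, SE 0.13), named here after its value was seen, and it was also high on array C (5.75, 6.10 and 5.72, against 4.86 to 5.54).

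None of 6 regulators of acinar cells was called. Ptf1a, the DNA-binding subunit of PTF1, read 5.50, 5.54 and 5.43 on arrays A, B and C, within the 5.19 to 5.72 of the other diets, and Bhlha15 (Mist1) and Rbpjl were not called either. None of 22 islet genes was called: Ins2, an insulin gene, read 5.67 on array A and 5.77 on array B, against 5.57 to 5.86. On array C it read 6.12, above that range. None of 12 duct genes was called. On arrays A and B the mean log2 difference from the other diets was 0.04 and 0.05 for the regulators, -0.03 and 0.04 for the islet genes and 0.04 and 0.10 for the duct genes, each within the range of the 12 arrays.

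Some skeletal muscle genes were high on the same arrays as the pancreas genes. Of 24 genes, 12 stood higher on arrays A and B of HCD+Sim than on the 13 other liver arrays, beside 0.987% of all rows. In HCD+Sim against HCD liver, 7 were called higher, none lower and 17 were not called, beside 0.199% of all rows called higher. The median was 0.40. The 17 not called ran from Ttn (-0.22) to Pvalb (0.66). Called were the calcium pump Atp2a1 (1.54, SE 0.28), the myosin light chain Myl1 (1.27, SE 0.24), the myosin heavy chains Myh1 (1.27, SE 0.24), Myh4 (1.01, SE 0.21) and Myh2 (0.83, SE 0.17), the actin Acta1 (1.19, SE 0.26) and the troponin Tnnc2 (0.91, SE 0.18). Atp2a1 read 8.98, 9.54 and 6.88 on arrays A, B and C. None of the 24 was called when the 15 liver arrays or the 6 compared arrays were fitted alone, and without array B of HCD+Sim 1 was. Without array C 11 were. The mean difference of the 24 genes from the median of the other diets was 0.63, 0.93 and 0.04 on arrays A, B and C. Unlike the pancreas genes, the muscle genes stood above the other diets on the Control liver arrays also, by 0.32, 0.46 and 0.26, where the 10 pancreas genes differed by 0.01, 0.03 and 0.01. The part of muscle RNA in these results was not tested.

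No gene of the intestine, stomach, salivary, lymphoid, adipose, hepatocyte, kidney and brain lists was called in this contrast. The hepatocyte genes differed from the other diets by 0.00, 0.01 and -0.03 on arrays A, B and C. Array B stood above the range of the 12 arrays for lymphoid genes (0.19) and for acinar granule and secreted proteins (0.29). Array A stood below that range for stomach genes (-0.12). On array C many lists stood above the range of the 12 arrays: the means were 0.27 above the other diets for salivary, 0.25 for islet, 0.25 for lymphoid, 0.24 for stomach, 0.22 for kidney, 0.20 for other acinar enzymes, 0.19 for acinar granule and secreted proteins, 0.16 for brain and 0.15 for intestine genes. The median over all rows was 0.10 above the other diets on array C.

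**Figure D4:**
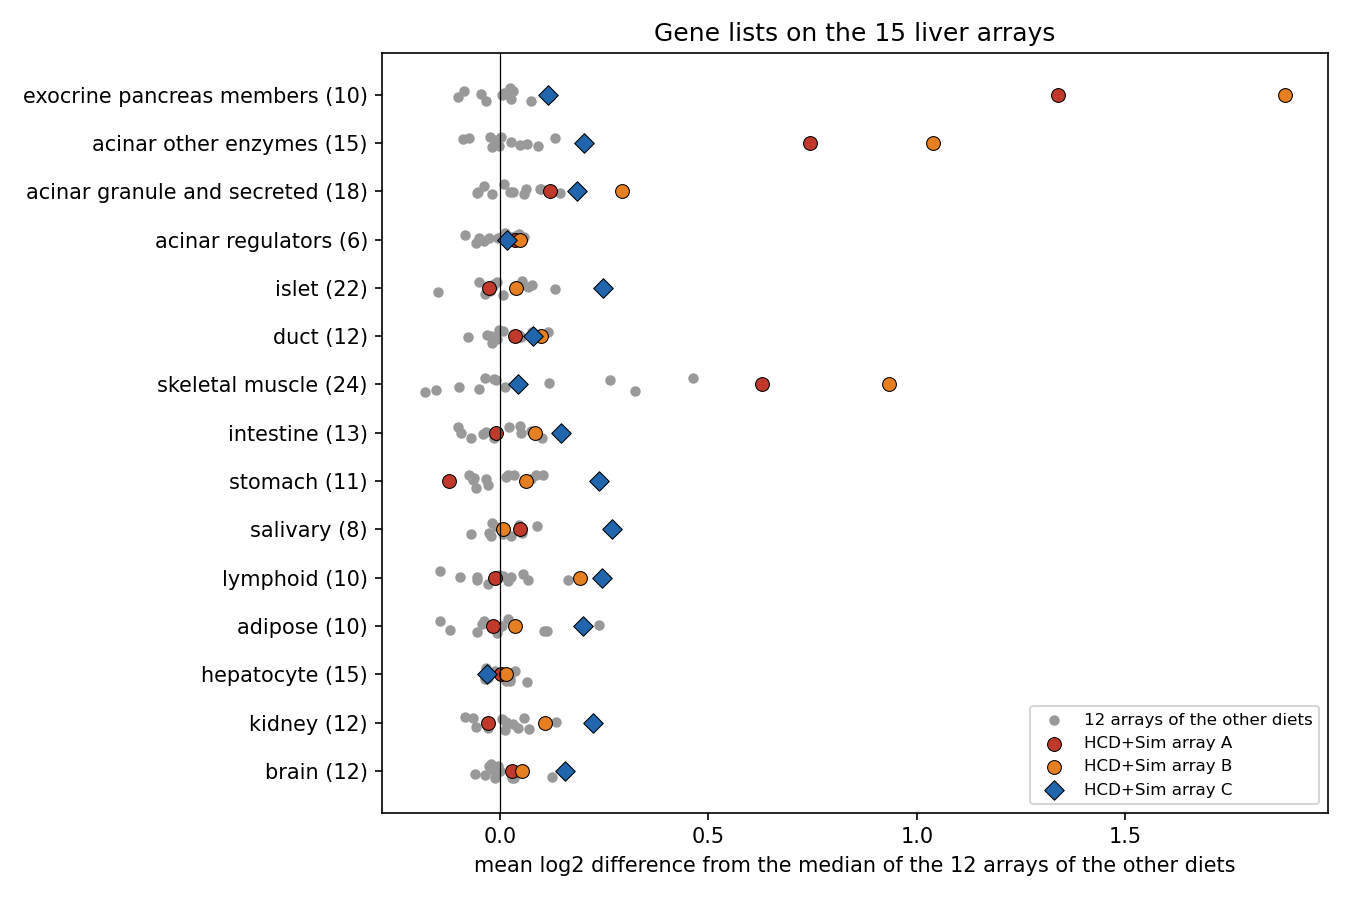
Mean log2 difference of each gene list (number of measured genes in brackets) from the median of the 12 liver arrays of the other diets, 1 point per liver array. Arrays A and B of HCD+Sim (red, orange) stand to the right for the 10 pancreas genes (1.34 and 1.88), other acinar enzymes (0.74 and 1.04) and skeletal muscle, while array C (blue) stays at 0.11 for the 10 genes. Array B also lies right of the 12 arrays for acinar granule and secreted proteins (0.29) and lymphoid genes (0.19).

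Across the whole table, 21 rows read more than 0.5 higher on both arrays A and B than on every other liver array, and 0 read more than 0.5 lower. They were 8 of the 10 members, 7 other acinar genes, 4 muscle genes and 2 genes in none of the lists, Trat1 and Cxcl9. The 2 members outside this set were Cela1 and Pnliprp2. The members just inside it were Cela2a, with a gap of 0.87, and Pnlip, with 0.89. Trat1, which encodes an adaptor of the T cell receptor, read 4.36, 4.72 and 3.58 on arrays A, B and C, against 3.19 to 3.75. Cxcl9, an interferon-induced chemokine, read 9.26, 9.52 and 8.76, and 7.61 to 8.63 on the other diets. They were named after their values were seen.

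Likeness was measured as Pearson's r with the mean of the 10 genes over the 15 liver arrays, among 4119 rows with a range of at least 0.7. That range was taken over the same 15 arrays, so a row could pass it through arrays A and B of HCD+Sim alone. The 10 genes were chosen for high values on these 2 arrays, so high coefficients were favoured in advance and are a description. The 12 rows most like them were Cel (r = 0.99), 2210010C04Rik (0.98), Ctrl (0.97), Rnase1 (0.97), Myh2 (0.95), the regenerating protein Reg1 (0.95), Trat1 (0.95), the phospholipase Pla2g1b (0.94), Myl1 (0.94), Myh4 (0.93), Prss2 (0.92) and the mitochondrial creatine kinase of muscle Ckmt2 (0.92). The 15 points share the 2 high arrays. By Spearman's rho over the same arrays only 2 of these 12 rows stayed among the 12 most alike, and by Pearson's r over all 45 arrays 8 did. Without the 2 high arrays, over 13 arrays, r was lower for all 12 rows. It was 0.70 for Myh2, 0.70 for Rnase1, 0.63 for Cel, 0.56 for Ckmt2 and 0.53 for Reg1. It was 0.36 for Pla2g1b, 0.34 for Trat1, 0.31 for Prss2, 0.28 for 2210010C04Rik, 0.18 for Myl1, 0.17 for Myh4 and 0.16 for Ctrl. The likeness of all 12 rows thus rests at least in part on arrays A and B. Each member was also set against the mean of the remaining 9 over the 15 liver arrays. The coefficient was 0.93 to 0.99 for 9 of them, and 0.37 for Pnliprp2, over points that share the same 2 arrays.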

How the data were processed

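Liver, kidney and brain RNA pools of 5 diet groups were hybridised to 45 Affymetrix Mouse Gene ST v1.0 arrays. By the methods, the authors applied RMA background correction and quantile normalization in oligo, adjusted batches by ComBat (batches not given in the sources used here) and kept 1 probe set per gene, that with the highest interquartile range. The authors deposited log2 values of 22080 rows, of which 13 have date-like names and are not named here. Quantile normalization and ComBat can shrink or spread differences between arrays, and low values hold background signal, so that fold changes of dim genes are understated. The number of arrays limits the precision. Groups were taken from the sample titles.

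One limma model (3.58.1, R 4.3.3) with 15 group means was fitted to all rows, with Benjamini-Hochberg adjustment over 22080 rows per contrast. It was tested on simulated data with independent noise on each array. That test does not cover a pool C made of A and B, nor a split of A and B from C. Other values were computed with Python 3.11.15 and pandas 2.3.3. Promoters came from RefSeq, GRCm38.p6. The 10 genes and all lists were chosen with earlier results of these data known. Named are the 10 genes, up to 12 listed genes called in the simvastatin liver contrast with the largest change, and the 12 rows most like the members. With 3 arrays per group an exact permutation test cannot give p under 0.1. Alternatives were the arrays and pools fitted, a block for the pool letter, the removal of dim rows, quantile normalization within tissue, no fold threshold, trended robust variances, each array left out and, chosen after seeing the data, array C alone for the simvastatin liver group, and all of these for the acinar enzyme and muscle lists.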

Additional observations from a re-analysis of the deposited data

How the results depend on the processing

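Of the 10 genes, 8 were called in HCD+Sim against HCD liver. The count fell to 0 when only the 15 liver arrays or only the 2 groups compared were fitted, and to 5 when dim rows were left out, since that filter kept 7 of the genes. Leaving out each array in turn gave counts from 4 to 8, the lowest without array B of HCD+Sim, where Clps, Pnliprp1, Cela2a and Cpb1 were no longer called. With array C alone for the simvastatin group, chosen after seeing the data, the count was 0 and the log2 fold changes of Cela2a (-0.027) and Cpb1 (-0.18) reversed. The same settings, also applied to the lists after seeing the data, moved the 5 other acinar enzymes called to 0 (liver arrays alone, 2 groups alone, array C alone), 1 (dim rows left out), and 9 (pools A and B alone, no fold threshold). They moved the 7 muscle genes called to 0 (liver arrays alone, 2 groups alone, array C alone) and 4 (dim rows left out). With each array left out, the acinar count ran from 4 to 9 and the muscle count from 1 to 11, both lowest without array B of HCD+Sim (for the acinar count also without array A of HCD) and highest without array C of HCD+Sim. Of the 12 rows most like the members, 2 were shared with the Spearman ranking and 8 with that over 45 arrays. Without the fold threshold, 2 genes instead of 1 were called between Control liver and brain. The median share of the mean of A and B found on array C moved from 31.4% to 2.35% (range -4.03% to 13.9%) after background subtraction. In the other 11 diet contrasts, none of the 154 alternatives called a member. Nothing is read from this, since the genes were chosen for low levels there and the alternatives reuse the same arrays. The pool letter as a replicate block left the count at 8; deviations of same-lettered HCD+Sim and HCD liver arrays correlated at 0.22, 0.07 and 0.05 for A, B and C, so the letters were not taken as pairs.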
